A study of Mus musculus with 7 samples.

Results

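The 10 genes described here encode costimulatory receptors of T cells and CD40 ligand. They were taken by symbol (Tnfrsf9, Tnfrsf4, Tnfrsf18, Cd27, Cd28, Icos, Cd40lg, Crtam, Slamf7 and Cd44) from the 27514 genes that all 7 count matrices hold. Each symbol matched 1 gene ID, and all 10 passed the filter on low counts in the comparison of activated with naive cells, in which 12325 genes were tested. The libraries are single-cell 3′ RNA libraries made on the 10x platform from spleen T cells of 8-week-old male C57BL/6 mice, and the labels name no allele or transgene. Naive double-negative T (DNT) cells were sorted as CD3+ NK1.1- TCRαβ+ TCRγδ- cells without CD4, CD8 or binding of aGal-CD1d and LPC-CD1d, and gave 2 libraries. Activated DNT cells, also 2 libraries, were naive DNT cells after 3 days of culture with IL-2 at 20 ng/ml and antibody to CD3 and CD28. The CD4 sort (CD4+CD8-), the CD8 sort (CD4-CD8+) and the TCRab sort, which took the same αβ T cells without a gate on CD4 or CD8, gave 1 library each. No group was cultured without stimulation, so culture and stimulation cannot be told apart. The series calls the 2 libraries of each DNT group biological replicates. It does not say how many mice went into a library, or whether same-numbered libraries came from the same mice. Kit v3 was used for replicate 2 of both DNT groups and kit v2 for the other 5 libraries.

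After filtering the libraries held 1549 to 6728 cells, 28101 of 28835 barcodes in all, with 17255173 to 53342795 UMIs (counted molecules) over the shared genes. Median UMIs per cell were 4090 and 7511 in naive DNT, 15724 and 9347 in activated DNT, and 3966 to 4877 in the 3 single libraries. Any pair of libraries shared at most 36 cell barcodes, and at most 0.838% of a library's cells. The 5 T cell markers Cd3e, Cd3d, Cd3g, Cd5 and Lat summed to 2118 to 3494 CPM (UMIs of the gene for each 1000000 UMIs of the library) in every library, and none of them was at 0. Cd4, Cd8a and Cd8b1 together reached 16.3 and 5.61 CPM in naive DNT and 5.82 and 5.91 CPM in activated DNT, against 159.5 CPM in the CD4 and 1798 CPM in the CD8 library. Summed over each list, markers of other cells were higher in the naive than in the activated DNT libraries. The 6 B cell markers summed to 174 and 207 CPM in naive and to 11.6 and 18.5 CPM in activated DNT, and the 5 myeloid markers to 508 and 191 against 164 and 164 CPM. Of the myeloid sums Cst3 gave 170 and 114 CPM in naive and 159 and 158 CPM in activated DNT, nearly all of the latter. The 4 globin genes summed to 3691 and 816 CPM in naive DNT, and in activated DNT to 0 and 0.436 CPM with 4 and 2 of the genes at 0. The 4 NK cell markers summed to 278 and 253 CPM in naive and to 56.5 and 131 CPM in activated DNT, with 2 and 1 of them at 0 in the latter. Nearly all of this was Klrk1, at 263 and 238 CPM in naive and 56.1 and 128 CPM in activated DNT. The other NK cell markers were lower in naive DNT, with Klrb1c at 13.5 and 12.75 CPM, Klra8 at 1.45 and 1.56 CPM and Ncr1 at 0.058 and 1.14 CPM. In CD4, CD8 and TCRab, Klrb1c was at 0.277, 0.916 and 0.493 CPM and Klra8 at 0.231, 0.0833 and 0.0547 CPM. Ncr1 was there at 0.0461, 0.0416 and 0 CPM. Whether NK cells were among the naive DNT cells was not tested. The part of other cells in the results below was not tested.

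T cell receptor signals are read together with costimulatory signals, which arrive through receptors of a few families. TNF receptor family members such as 4-1BB, OX40, GITR and CD27 recruit TRAF adaptors and act on NF-kB and survival pathways, and several of them appear on T cells after stimulation. CD28 and ICOS belong to the immunoglobulin superfamily and signal through phosphoinositide 3-kinase. CD40 ligand is carried by helper T cells and engages CD40 on B cells and antigen-presenting cells.

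On GRCm38, Tnfrsf9 lies on chromosome 4 (150914562 to 150946102, plus strand). Tnfrsf4 (156013843 to 156016612) and Tnfrsf18 (156026164 to 156028895) are plus-strand neighbours on the same chromosome, 9551 bases apart. Cd28 (60716800 to 60773359) and Icos (60977927 to 61000320) lie 204567 bases apart on the plus strand of chromosome 1, which also carries Slamf7 (171632403 to 171653035, minus strand). Cd27 is on chromosome 6 (125232622 to 125237010, minus strand), Cd40lg on X (57212143 to 57224042, plus), Crtam on 9 (40969691 to 41004628, minus) and Cd44 on 2 (102811141 to 102901665, minus). All 10 are annotated as protein coding.

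RefSeq promoter windows on GRCm38.p6, 250 bases before to 50 after a transcript start, were at hand for 6 of the 10 genes, in 7 windows. They were searched on both strands for AP-1 (TGANTCA), for the NFAT core (GGAAA) and for the NF-kB consensus, and an NFAT core may lie inside an NF-kB match. The windows of Tnfrsf9 and Tnfrsf4 are printed because both genes rose in activated DNT cells, and that of Slamf7 because it holds the other AP-1 match among the 7 windows. Capitals mark AP-1 and NF-kB matches.
Tnfrsf9, chr4:150919905-150920204, plus strand: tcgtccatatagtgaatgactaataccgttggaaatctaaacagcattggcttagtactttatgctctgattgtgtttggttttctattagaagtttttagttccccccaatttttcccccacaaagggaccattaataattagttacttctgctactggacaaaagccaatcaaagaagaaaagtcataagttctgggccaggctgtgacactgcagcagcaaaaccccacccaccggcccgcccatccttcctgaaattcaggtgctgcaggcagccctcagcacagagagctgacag
Tnfrsf9, chr4:150927749-150928048, plus strand: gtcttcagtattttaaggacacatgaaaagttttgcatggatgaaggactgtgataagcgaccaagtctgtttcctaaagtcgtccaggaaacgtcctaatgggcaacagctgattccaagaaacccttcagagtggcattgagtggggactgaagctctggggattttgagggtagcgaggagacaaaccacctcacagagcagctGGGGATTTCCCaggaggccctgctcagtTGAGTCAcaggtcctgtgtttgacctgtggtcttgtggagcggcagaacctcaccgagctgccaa
Tnfrsf4, chr4:156013445-156013744, plus strand: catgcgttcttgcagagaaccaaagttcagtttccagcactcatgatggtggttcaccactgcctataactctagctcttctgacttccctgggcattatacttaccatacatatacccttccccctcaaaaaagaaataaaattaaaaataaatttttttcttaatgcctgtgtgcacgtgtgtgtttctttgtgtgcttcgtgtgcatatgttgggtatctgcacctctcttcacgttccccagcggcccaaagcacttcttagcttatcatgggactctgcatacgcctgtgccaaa
Slamf7, chr1:171648950-171649249, minus strand: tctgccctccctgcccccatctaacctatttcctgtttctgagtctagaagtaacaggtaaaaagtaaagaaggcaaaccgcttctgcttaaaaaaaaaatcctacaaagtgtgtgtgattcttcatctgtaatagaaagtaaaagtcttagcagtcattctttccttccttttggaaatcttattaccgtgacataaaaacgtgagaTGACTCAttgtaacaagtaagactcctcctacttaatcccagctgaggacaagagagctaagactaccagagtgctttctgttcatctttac
Both Tnfrsf9 windows and the Slamf7 window lie inside the annotated span of their gene, and the Tnfrsf4 window lies just before it. In the downstream Tnfrsf9 window 2 overlapping NF-kB matches begin 43 and 42 bases before the start, and an AP-1 match begins 15 bases before it. An AP-1 match begins 42 bases before the Slamf7 start. The windows of Tnfrsf4, Tnfrsf18, Cd27 and Cd44 and the upstream Tnfrsf9 window held no AP-1 or NF-kB match, and all 7 windows held an NFAT core. Among 32851 RefSeq windows of this length, 7.81% held an AP-1, 8.46% an NF-kB and 61.3% an NFAT core match.

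After 3 days of culture with stimulation the 10 genes did not move together. Tnfrsf9, Tnfrsf4 and Crtam rose in activated DNT cells, no member fell by the same test, and the other 7 did not pass it. In the sorted, unstimulated cells the pattern was different: naive DNT cells held more Slamf7, Cd44 and Crtam and less Cd40lg and Tnfrsf4 RNA than CD4 cells. Of these genes Cd40lg and Tnfrsf4 differed by the largest fold between CD4 and CD8 cells.

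**Figure D1:**
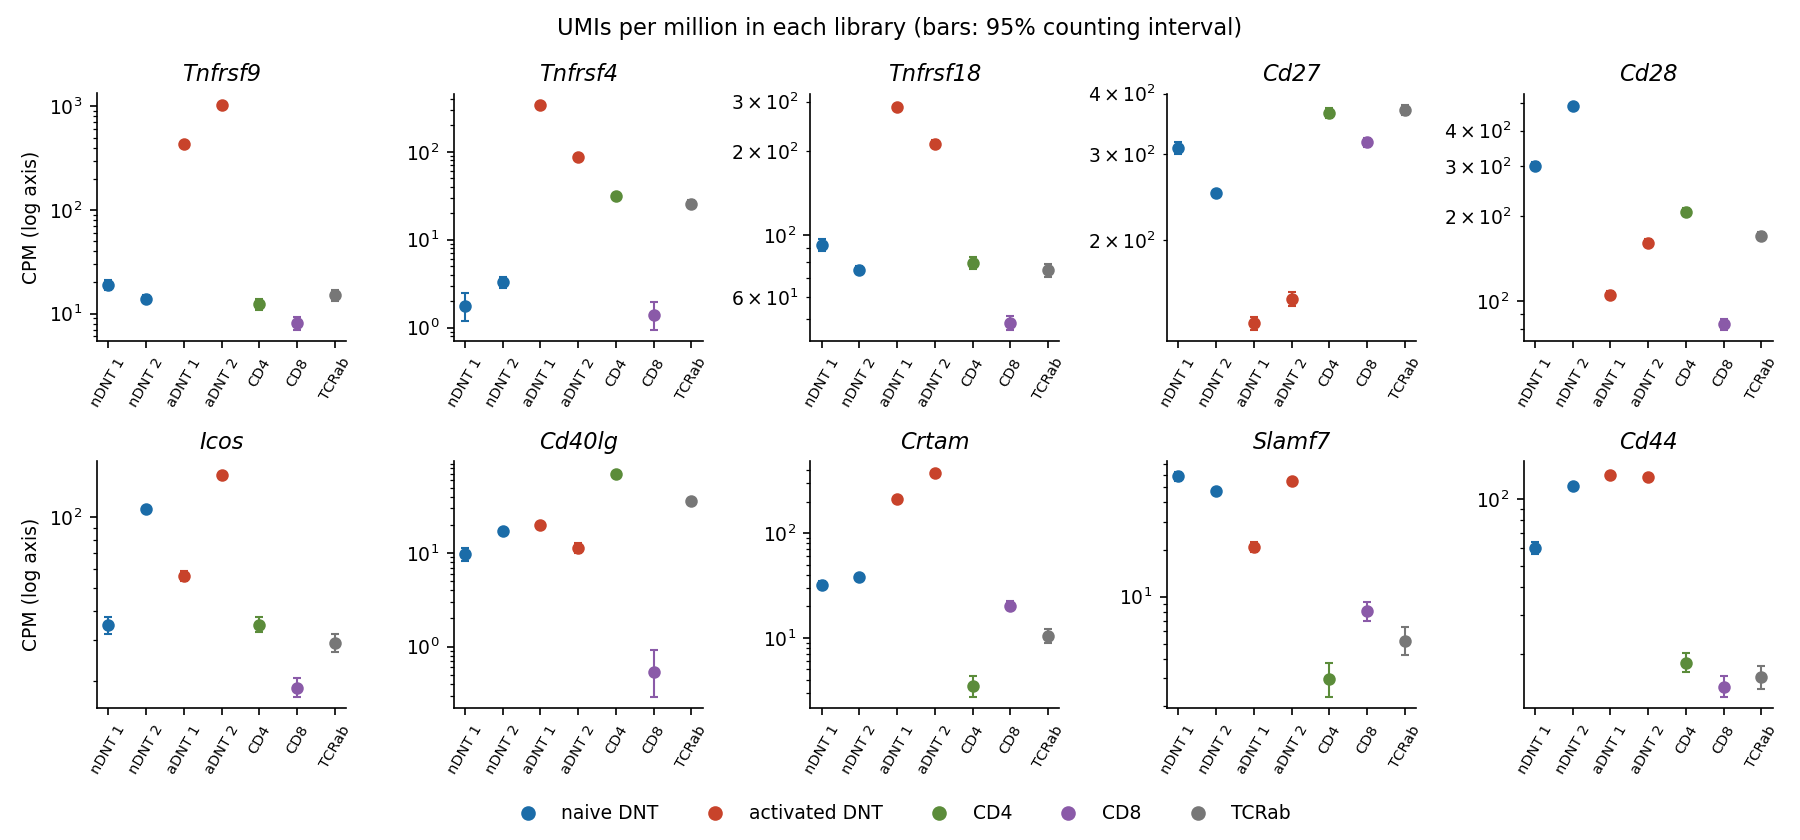
CPM (log axis, scaled for each gene) of the 10 genes in each of the 7 libraries, where nDNT is naive and aDNT activated DNT, points are libraries and bars are 95% counting intervals. Tnfrsf9, Tnfrsf4 and Crtam are higher in both activated than in both naive libraries, and Cd40lg is highest in the CD4 and lowest in the CD8 library.

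Among the TNF receptors, Tnfrsf9 encodes 4-1BB, an inducible receptor of stimulated T cells. It stood at 18.8 and 13.9 CPM in the naive DNT libraries (replicates 1 and 2), at 431 and 1025 CPM in the activated DNT libraries, and at 12.3 CPM in CD4, 8.08 CPM in CD8 and 15.1 CPM in TCRab. Both activated libraries lay far above the other 5, among which the counting intervals of naive DNT, TCRab and CD4 touched or overlapped in order of level. The mean was 16.4 ± 3.43 CPM in naive and 728 ± 420 CPM in activated DNT (SD, n = 2 each). Summed per library and tested with edgeR's quasi-likelihood test with Benjamini-Hochberg adjustment over all genes, the log2 fold change was 5.19 ± 0.66 (SE), adjusted p = 0.00928. It stayed past 0.05 in all 12 alternatives that were run, including those without each library in turn (highest adjusted p 0.0183).

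Tnfrsf9 was present in many activated cells and not in a few. To compare shares across depths each cell was thinned to 1500 random UMIs, which left out between 0 and 80 shallower cells per library. After thinning, 2.50% and 1.87% of naive DNT cells and 43.6% and 44.98% of activated DNT cells held a Tnfrsf9 UMI, and the CD4, CD8 and TCRab libraries held 1.04%, 0.732% and 1.31%. Without thinning the shares were 5.68% and 6.38% in naive and 90.3% and 67.5% in activated DNT. At full depth a positive cell had on average 9.15 UMIs in activated replicate 1 and 24.8 in replicate 2, with up to 120 and 306 in a single cell, against 1.41 and 1.73 in naive DNT. The gap between the activated libraries was smaller after thinning, at 1.78 and 2.26 UMIs per positive cell against 1.22 and 1.17 in naive DNT. At least 10 UMIs were seen in 31.1% and 36.6% of activated cells, and in 0% and 0.0595% of naive cells.

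Tnfrsf4 encodes OX40, a late costimulatory receptor best known on CD4 cells. Its levels were 1.74 and 3.26 CPM in naive DNT, 338 and 87.3 CPM in activated DNT, 31.3 CPM in CD4, 1.37 CPM in CD8 and 25.6 CPM in TCRab. The activated libraries were the highest of the 7 but differed from each other, and naive DNT lay at the low end beside CD8, whose counting interval overlapped that of naive replicate 1. The log2 fold change was 6.48 ± 0.96, with adjusted p = 0.0151 by edgeR and 0.0495 when replicate number was a block. The estimate was 4.82 without activated replicate 1 and 7.25 without activated replicate 2. After thinning, 0.325% and 0.511% of naive cells and 18.5% and 3.46% of activated cells held a Tnfrsf4 UMI (0.741%, 2.38%, 52.4% and 14.8% unthinned). In activated replicate 2 the 10% of cells with the most Tnfrsf4 held 96.6% of its UMIs, and in replicate 1 69.8%. A positive activated cell had on average 12.4 and 9.57 UMIs, or 1.76 and 1.63 after thinning.

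Tnfrsf18, the neighbour of Tnfrsf4, encodes GITR. Its RNA was present in every sort, at 92.4 and 74.9 CPM in naive DNT, 287 and 212 CPM in activated DNT, 79.4 CPM in CD4, 48.7 CPM in CD8 and 74.8 CPM in TCRab. Both activated libraries exceeded all others, and the lowest was CD8. The log2 fold change of 1.44 ± 0.54 did not pass the test without a block (edgeR adjusted p = 0.133) and passed it when replicate number was a block (1.43 ± 0.22, adjusted p = 0.000662). Thinned shares were 13.1% and 10.8% in naive, 28.7% and 20.3% in activated DNT, 10.6% in CD4, 7.02% in CD8 and 9.93% in TCRab.

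Cd27, the receptor of CD70, is carried by most resting T cells. It reached 310 and 249.7 CPM in naive DNT, 135 and 152 CPM in activated DNT, 365 CPM in CD4, 318 CPM in CD8 and 371 CPM in TCRab. The activated libraries were the lowest and did not overlap the naive ones. The log2 fold change was -1.15 ± 0.50 with adjusted p = 0.181, and -1.10 ± 0.24 with adjusted p = 0.00458 under the block (both edgeR). Its thinned shares ran from 21.3% and 24.5% in activated through 38.0% and 29.7% in naive DNT to 35.8% in CD8, 42.8% in CD4 and 44.1% in TCRab. Unthinned shares were 69.4% and 75.8% in naive and 83.1% and 68.9% in activated DNT. A positive cell then held 1.90 and 2.61 UMIs in naive and 3.11 and 3.58 in activated DNT. The lower CPM and thinned shares are relative to all UMIs, of which activated cells had more.

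**Figure D2:**
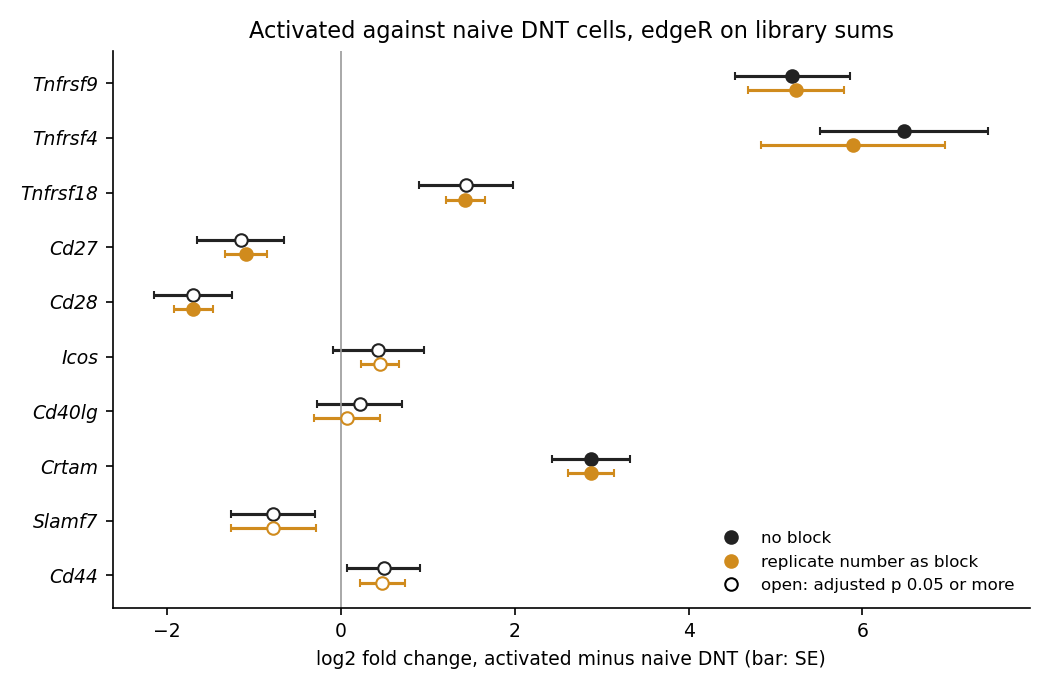
log2 fold change of each gene in activated minus naive DNT cells (x axis, bars are SE, 2 libraries a group), from edgeR without a block (black) and blocked by replicate number (orange), where filled points passed adjusted p 0.05. Tnfrsf9, Tnfrsf4 and Crtam are filled in both fits, and Tnfrsf18, Cd27 and Cd28 only with the block.

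Of the immunoglobulin family receptors, Cd28 binds CD80 and CD86 and was itself a target of the stimulating antibody. It measured 301 and 488 CPM in naive DNT, 105 and 160 CPM in activated DNT, 206 CPM in CD4, 82.9 CPM in CD8 and 170 CPM in TCRab. The naive DNT libraries were the highest of all, and the CD8 library was below both activated ones. Activated against naive DNT gave a log2 fold change of -1.70 ± 0.45, adjusted p = 0.0558 without and 0.000246 with the block (edgeR). DESeq2 gave -1.67 with adjusted p = 0.000188. Thinned shares were 35.6% and 47.4% in naive DNT, 14.5% and 24.4% in activated DNT, 26.5% in CD4, 11.5% in CD8 and 22.4% in TCRab.

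Icos, the inducible relative of Cd28, differed more between replicates than between conditions. It stood at 34.7 and 107.8 CPM in naive DNT and at 56.2 and 150.4 CPM in activated DNT, with 34.8 CPM in CD4, 18.8 CPM in CD8 and 29.1 CPM in TCRab. In both groups replicate 2, made with kit v3, was the higher, and the groups overlapped. In the test Icos had a log2 fold change of 0.43 ± 0.52 (edgeR adjusted p = 0.641, and 0.122 with the block). Its sign turned to -0.10 without activated replicate 2. Thinned shares showed the same order, 4.09% and 11.3% in naive and 6.03% and 15.9% in activated DNT.

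Cd40lg encodes CD40 ligand, the helper molecule of CD4 cells. It reached 69.4 CPM in CD4 and 35.9 CPM in TCRab, 9.68 and 17.1 CPM in naive DNT, 19.7 and 11.3 CPM in activated DNT, and 0.541 CPM (13 UMIs) in CD8. The DNT libraries of both conditions lay between CD8 and TCRab and overlapped each other. Between the conditions the log2 fold change was 0.21 ± 0.49 with adjusted p = 0.819 (edgeR), and it was -0.15 in thinned cells and -0.55 without activated replicate 1. At equal depth 9.63% of CD4, 5.43% of TCRab and 0.0861% of CD8 cells held a Cd40lg UMI, against 1.20% and 1.91% of naive and 1.23% and 1.22% of activated DNT cells. Its UMIs were few per positive cell in the sorted libraries (1 to 1.58 on average) and more in activated DNT (4.01 and 3.75), whose cells were also more deeply sequenced.

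Crtam, a receptor of the nectin-binding group that is known from stimulated CD8 and NK cells, was higher in activated than in naive DNT cells. It stood at 32.1 and 38.1 CPM in naive DNT, 212 and 374 CPM in activated DNT, 3.46 CPM in CD4, 20.4 CPM in CD8 and 10.5 CPM in TCRab. No 2 neighbours in this order had overlapping counting intervals, and naive DNT lay above all 3 single libraries. The log2 fold change was 2.88 ± 0.45, with adjusted p = 0.0143 without and 2.38e-05 with the block (edgeR). Thinned shares went from 4.79% and 5.16% to 25.8% and 21.8% (11.7%, 22.4%, 72.5% and 43.2% unthinned). Positive activated cells held 5.62 and 14.1 UMIs on average at full depth and 1.45 and 1.81 after thinning, against 1.17 and 1.35, and 1.06 and 1.05 after thinning, in naive DNT.

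Slamf7, a self-binding receptor of the SLAM family found on cytotoxic lymphocytes, was seen mainly in DNT cells. Its levels were 58.7 and 47.5 CPM in naive DNT, 20.7 and 54.6 CPM in activated DNT, 2.95 CPM in CD4, 8.08 CPM in CD8 and 5.20 CPM in TCRab. All 4 DNT libraries lay above the 3 single libraries, and naive and activated DNT overlapped. Against naive DNT the log2 fold change was -0.78 ± 0.49 with adjusted p = 0.342 (edgeR). Thinned shares were 6.97% and 5.11% in naive and 3.41% and 7.26% in activated DNT, against 0.200% in CD4, 0.840% in CD8 and 0.493% in TCRab.

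Cd44, the hyaluronan receptor that marks antigen-experienced T cells, was likewise highest in the DNT libraries. It measured 60.04 and 114 CPM in naive DNT, 127.8 and 125.4 CPM in activated DNT, 18.3 CPM in CD4, 14.3 CPM in CD8 and 15.8 CPM in TCRab. The counting intervals of the activated libraries overlapped, and both were just above naive replicate 2, while CD4, TCRab and CD8 overlapped as neighbours at the low end. Activated against naive DNT gave 0.49 ± 0.42 on the log2 scale, adjusted p = 0.499 (edgeR). Shares after thinning were 7.76% and 14.3% in naive, 14.0% and 11.8% in activated DNT and 2.11% to 2.48% in the single libraries.

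**Figure D3:**
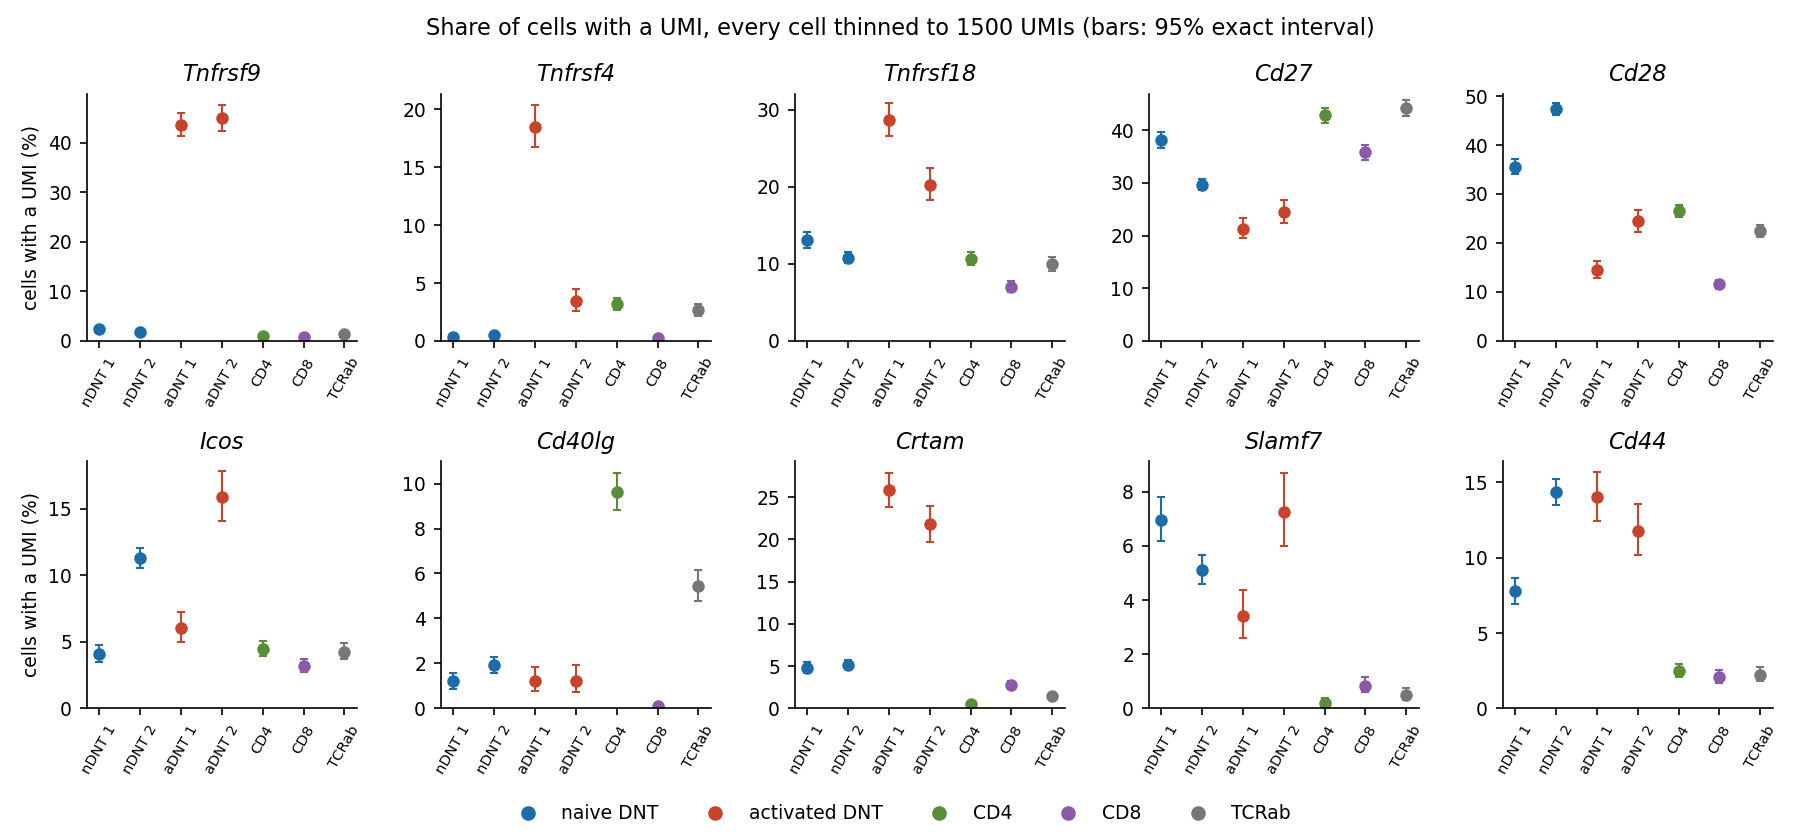
Share of cells with at least 1 UMI of each gene (y axis, percent, linear) after every cell was thinned to 1500 UMIs, for the 7 libraries, with 95% exact binomial intervals that cover counting error only. About equal shares of cells in both activated libraries hold Tnfrsf9 (43.6% and 44.98%), while Tnfrsf4 differs between them (18.5% and 3.46%).

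In the test of activated against naive DNT, 3 of the 10 genes were called higher and 0 lower at an edgeR adjusted p under 0.05, where 5.32% of the 12325 genes tested were called higher and 5.06% lower (10.4% in either direction). At an unadjusted p under 0.05 there were 5 of 10, where 28.5% of all genes were, and DESeq2 called 5, where it called 19.1%. With the replicate block 6 of 10 were called, where 39.7% of all genes were (19.9% higher and 19.8% lower). CPM of the groups did not overlap for 7 of 10, with 5 above and 2 below, where 51.9% of all genes tested did not overlap. The median log2 fold change was 0.46 over the 10 genes and -0.05 over all genes tested. Without naive replicate 1, or without naive replicate 2, Tnfrsf9 alone was called: Tnfrsf4 then had adjusted p = 0.0674 and 0.0537, and Crtam 0.0572 and 0.0622. Without cells holding 2 or more UMIs of other cell types' markers, a rule that took 24.9% to 56.4% of each library's cells, Tnfrsf4 had a log2 fold change of 4.35 and adjusted p = 0.148. Of activated DNT cells it took 56.4% and 47.3%. The rule did not scale with a cell's depth, and nearly all myeloid marker UMIs in these libraries were Cst3. Which kind of cell it removed was not tested. In sums over a library, fewer cells expressing a gene and less RNA per cell cannot be told apart, and the thinned shares and UMIs per positive cell above speak to each only in part.

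Naive DNT cells were set against CD4, CD8 and TCRab cells with 1 library on the other side, so no test was made. A gene counted as apart when both naive libraries were 2-fold or more from the other library in 1 direction and all libraries on the higher side had 20 CPM or more. Against CD4 cells 9 of the 10 genes reached 20 CPM, of which 3 were higher (Crtam, Slamf7, Cd44) and 2 lower (Tnfrsf4, Cd40lg) in naive DNT, where 5.51% of 4031 genes were higher and 1.34% lower (6.85% in either direction). Slamf7 was 19.9-fold and 16.1-fold higher in naive replicates 1 and 2 than in CD4, Crtam 9.28-fold and 11-fold, and Cd44 3.28-fold and 6.24-fold. In the other direction Tnfrsf4 was 18.0-fold and 9.61-fold higher, and Cd40lg 7.17-fold and 4.06-fold higher, in CD4 cells. Cd28 (1.46-fold and 2.36-fold) and Icos (0.995-fold and 3.09-fold) passed the fold in naive replicate 2 only.

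Against CD8 cells 3 of 7 genes at 20 CPM were higher in naive DNT (Cd28, Slamf7, Cd44) and 0 lower, where 4.87% of 3944 genes were higher and 0.532% lower (5.4% in either direction). Cd28 was 3.63-fold and 5.89-fold, Slamf7 7.26-fold and 5.88-fold, and Cd44 4.20-fold and 8.001-fold higher. Crtam, at 1.57-fold and 1.87-fold, was nearer to CD8 than to CD4 cells. Cd40lg was 17.9-fold and 31.6-fold higher in naive DNT than in CD8, but at 9.68 and 17.1 CPM it lay below the 20 CPM asked for. Against TCRab cells the same 5 of 9 genes were apart as against CD4, where 4.16% of 4082 genes were higher and 1.18% lower (5.34% in either direction). Free RNA in droplets can give a UMI to a cell that does not make it, so shares in naive replicate 2 were compared with those of 113 cells with at least 3 different B cell markers. Such cells may make a gene themselves or be doublets, which were not called. Their shares therefore do not measure free RNA alone. In 112 of these that kept 1500 UMIs, none had a UMI of Tnfrsf9, Tnfrsf4, Cd40lg or Crtam, which allows shares up to 3.24%. Slamf7 was seen in 3.57% of them against 5.14% of the other cells, Cd44 in 9.82% against 14.4%, Cd28 in 5.36% against 48.1% and the T cell marker Cd3e in 8.93% against 55.5%, with median UMIs of 5287 against 7545. At this number of cells the exact intervals for Slamf7 (0.982% to 8.89%) and Cd44 (5.01% to 16.9%) include the value of the other cells, and the naive shares of Tnfrsf9, Tnfrsf4 and Cd40lg lie under the limit of 3.24%.

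CD4 and CD8 cells, with 1 library each and no test, were apart in 4 of the 7 genes at 20 CPM. Tnfrsf4, Cd28 and Cd40lg were higher in CD4 and Crtam higher in CD8 cells, where 1.45% of 3802 genes were higher and 1.55% lower in CD4 (3.0% in either direction). Cd40lg was 128-fold higher in CD4 (exact 95% counting interval 74.7 to 241) and Tnfrsf4 22.8-fold (16.1 to 33.4). Cd28 was 2.49-fold higher in CD4 (2.36 to 2.63), and Crtam 5.90-fold higher in CD8 (4.62 to 7.62). In thinned cells Crtam missed the 20 CPM in CD8, at 19.1 CPM. The TCRab library, which holds both kinds of cell, lay between CD4 and CD8 for 8 of the 10 genes, all except Tnfrsf9 and Cd27. The share over all genes was not computed, so this count is not a trait of these genes.

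Within the TCRab library the cells could be split by their own Cd4 and Cd8a UMIs. The 1095 cells with a Cd4 and no Cd8a UMI held 51.7 CPM of Cd40lg, 45.9 CPM of Tnfrsf4 and 211 CPM of Cd28. The 1173 cells with a Cd8a and no Cd4 UMI held 9.52, 7.75 and 118 CPM of them. Crtam ran the other way, at 6.25 against 20.1 CPM, as did Slamf7 at 1.94 against 9.16 CPM. The directions in this single library were those between the CD4 and CD8 sorts. The levels differed, as the CD8 sort held only 0.541 CPM of Cd40lg, 1.37 CPM of Tnfrsf4 and 82.9 CPM of Cd28. The groups with Cd4 or Cd8a alone were 25.5% and 27.3% of the library's cells. Whether each group held a single kind of cell was not tested.

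Foxp3, the lineage factor of regulatory T cells, marked a further split. In the CD4 library 147 of 5035 cells had a Foxp3 UMI, and in them Tnfrsf4 stood at 191.5 CPM against 26.5 CPM in the other 4888 cells (median UMIs 3763 and 4079.5). Tnfrsf18 was at 273 against 73.5 CPM, Icos at 137 against 31.8 CPM and Tnfrsf9 at 59.7 against 10.8 CPM. Cd40lg was lower in the Foxp3 cells, at 20.4 against 70.8 CPM, and Crtam had 0 UMIs there, which allows up to 5.79 CPM. After thinning 19.2% of Foxp3 cells and 2.68% of the others held a Tnfrsf4 UMI, and 30.8% and 10.0% a Tnfrsf18 UMI. In the TCRab library the 79 Foxp3 cells had 408 CPM of Tnfrsf4 against 17.7 CPM, 395 CPM of Tnfrsf18 against 68.2 CPM, and 13.5 CPM of Cd40lg against 36.3 CPM. The Foxp3 cells held 18.0% of the Tnfrsf4 UMIs of the CD4 library and 32.3% of those of the TCRab library. Foxp3 itself was at only 9.92 CPM in the CD4 and 7.01 CPM in the TCRab library. A regulatory T cell can therefore lack a Foxp3 UMI, and the shares are not those of all regulatory T cells.

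**Figure D4:**
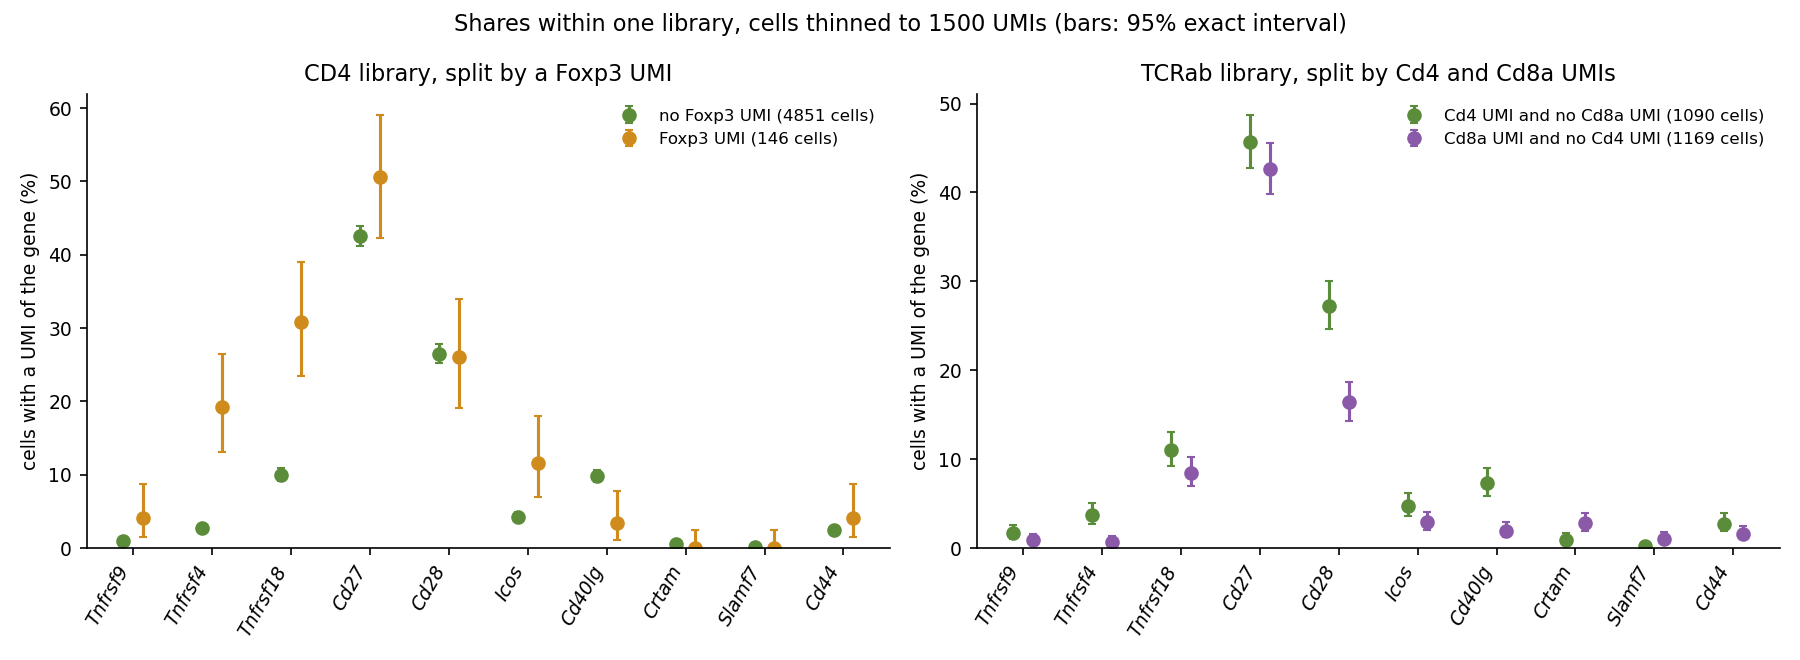
Share of cells with a UMI of each gene (y axis, percent, cells thinned to 1500 UMIs, bars are 95% exact intervals) within the CD4 library, split by a Foxp3 UMI (left), and within the TCRab library, split by Cd4 and Cd8a UMIs (right). Tnfrsf4 and Tnfrsf18 are seen in 19.2% and 30.8% of Foxp3 cells against 2.68% and 10.0% of other CD4 cells.

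A cell at 1500 UMIs held on average 1.14 and 1.28 of the 10 genes in naive DNT, 1.77 and 1.76 in activated DNT, 1.01 in CD4, 0.642 in CD8 and 0.943 in TCRab. At least 3 of them were seen together in 8.26% and 10.9% of naive DNT, 25.5% and 26.3% of activated DNT, 6.00% of CD4, 1.25% of CD8 and 5.54% of TCRab cells. Whether particular genes shared cells was described by the number of cells with UMIs of both genes over the number expected from their shares. A pair was read only where at least 5 such cells were expected, and was called high at a ratio of 1.5 or more in both libraries. Cells of a library are not replicates, so no p is given. The share of high pairs over all genes was not computed, so the counts of pairs do not show whether these genes are unusual.

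In naive DNT cells 29 of 45 pairs could be read in both libraries and 2 were high. Slamf7 shared cells with Crtam (ratio 2.92 and 2.22, 39 cells in each library) and with Tnfrsf9 (2.59 and 2.21, 18 and 14 cells). Slamf7 and Tnfrsf18 shared fewer cells than expected (0.574 and 0.517), and so did Cd27 and Cd40lg (0.602 and 0.584). In replicate 2 Cd40lg shared cells with Icos (3.56) and with Cd44 (2.09), and Icos with Cd44 (1.68). In replicate 1 the Icos and Cd44 ratio was 1.49, and both Cd40lg pairs had under 5 cells expected. Tnfrsf9 with Crtam had a ratio of 2.19 in replicate 2 (14 cells). Its ratio in replicate 1 was 3.55 (17 cells), but only 4.79 cells were expected there, just under the 5 asked for. This pair was counted as high at 2500 UMIs per cell and without thinning. Slamf7 with Crtam was high under every alternative run, with other depths and without marker cells or a library. Slamf7 with Tnfrsf9 was not high at 1000 UMIs per cell, or without cells holding 2 or more UMIs of other cell types' markers. At each of these settings 25 pairs could be read, and a pair with under 5 cells expected counted as neither high nor low. Slamf7 with Tnfrsf18 was no longer low at 1000 or 2500 UMIs or without thinning, and Cd27 with Cd40lg no longer low without thinning or without the marker cells.

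Among partner genes, Eomes, a T-box factor of memory and cytotoxic cells, shared cells with Slamf7 (ratio 4.06 and 5.20), with Crtam (2.05 and 2.91) and with Tnfrsf9 (2.67 and 2.63), and its ratio with Cd44 was 1.47 and 1.19. Among naive DNT cells with an Eomes UMI 28.2% and 26.6% held Slamf7, against 5.15% and 3.79% of those without. Cd40lg shared cells with Il7r, the IL-7 receptor (2.39 and 1.69), and seldom with Fcer1g, the Fc receptor gamma chain (0.494 and 0.237).

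**Figure D5:**
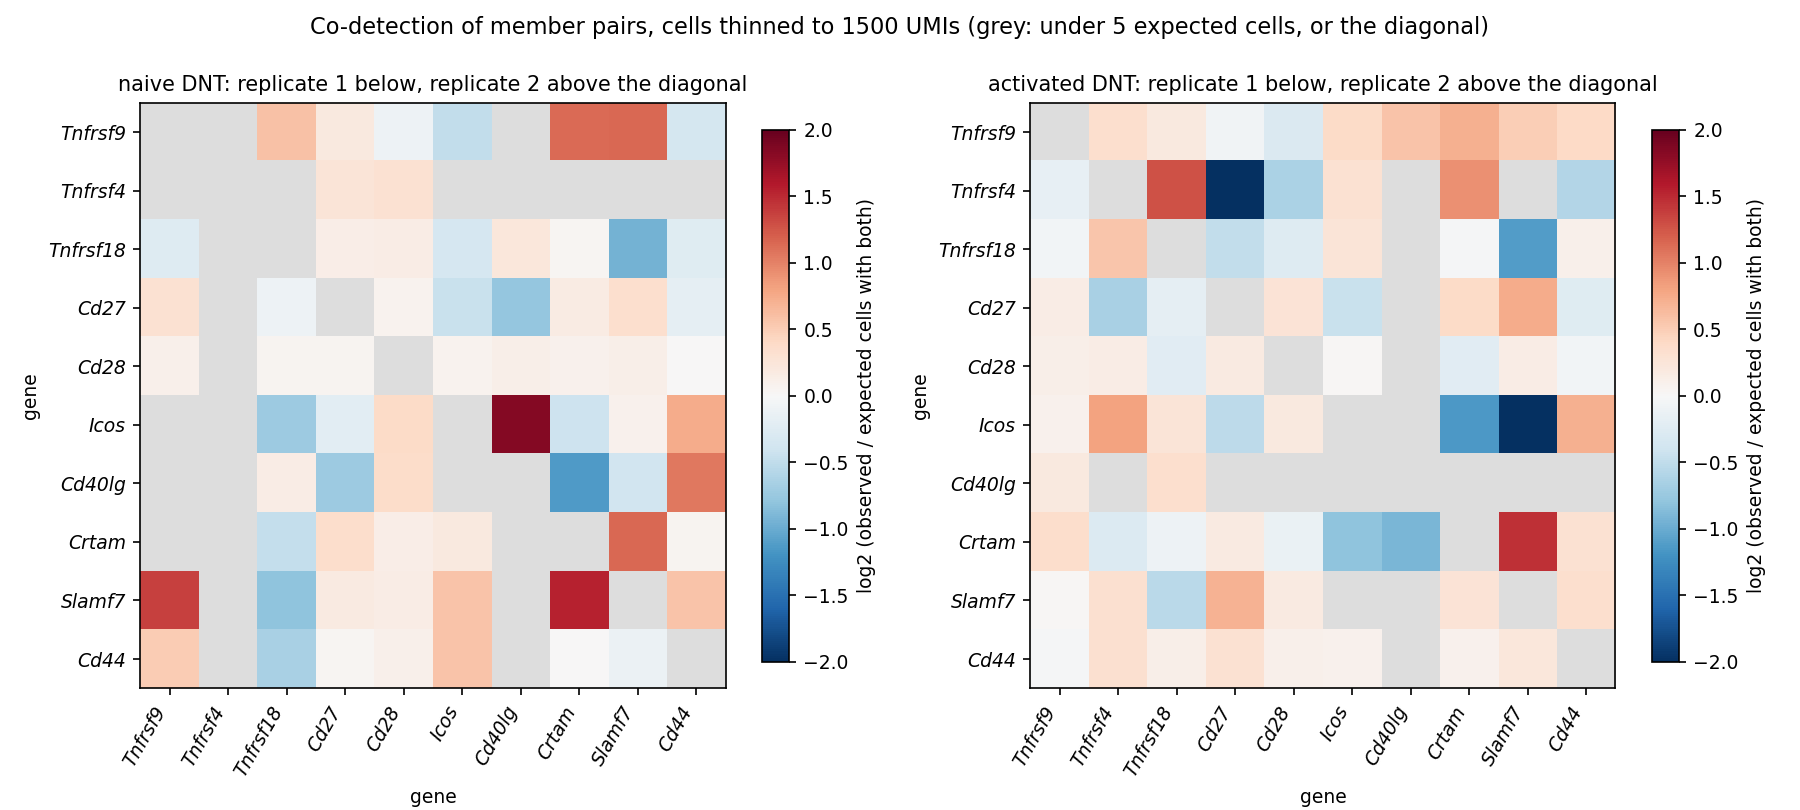
log2 of observed over expected cells with UMIs of both genes, in cells thinned to 1500 UMIs, for naive (left) and activated DNT (right), with replicate 1 below and replicate 2 above the diagonal, grey where under 5 cells were expected, and colours that end at -2 and 2. Slamf7 with Crtam and with Tnfrsf9 is red in both naive libraries, and Icos with Crtam is blue in both activated libraries.

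In activated DNT cells 35 pairs could be read, and only Cd27 with Slamf7 was high in both libraries (1.61 and 1.68). Tnfrsf4 and Cd27 shared fewer cells than expected (0.637 and 0.160), as did Icos and Crtam (0.574 and 0.451). The neighbours Tnfrsf4 and Tnfrsf18 had ratios of 1.47 and 2.42. Cd27 with Slamf7 was no longer high at 1000 or 2500 UMIs per cell, without thinning or without the marker cells. Tnfrsf4 with Cd27 was no longer low at 2500 UMIs, and neither low pair was low without thinning or without the marker cells. At 1000 UMIs 31 pairs could be read and without the marker cells 24. A pair that could not be read counted as neither high nor low. Of the partner genes, Il17a shared cells with Icos (3.53 and 2.59) and Cd44 (1.97 and 2.49), and Ifng with Crtam (1.56 and 2.66) and Slamf7 (1.93 and 3.59). Icos was seen in 21.3% and 41.2% of Il17a cells against 5.19% and 14.3% of the others. Crtam was seen in 40.3% and 58.0% of Ifng cells against 22.8% and 18.0%. Nr4a1, an early gene of receptor stimulation, shared cells with Slamf7 (3.30 and 4.09) and Cd27 (1.52 and 1.76).

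In the CD4 library 6 of 26 readable pairs had a ratio of at least 1.5, and 5 of these 6 held Tnfrsf18 or Tnfrsf4. Tnfrsf4 with Tnfrsf18 (3.40) and Tnfrsf4 with Icos (2.98) were the highest. The TCRab library had 6 of 25 pairs, led by Tnfrsf4 with Tnfrsf18 (3.56), and the CD8 library 0 of 14.

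Genes with the most similar profile over the 7 libraries were found by Pearson's r of log2(CPM + 1) among 6277 genes. This is given as a description of these libraries, which differ in kit and depth. Tnfrsf9 was followed most closely by Ndfip1 (r = 0.997), Glipr1 and Srxn1 (both 0.995). For Cd40lg they were Zbtb7b (0.988), the CD4 lineage factor ThPOK, Ldhb (0.952) and Mlx (0.937). Crtam was nearest to Sap30 (0.994), Vat1 (0.992) and Mthfd1l (0.988), and Cd27 to Ctss (0.9995), Arhgdib (0.995) and Cd3g (0.993).

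Other genes of these pathways were counted in the same edgeR test, from lists chosen with earlier results of these data known. All list counts here and below stand beside the shares over all 12325 genes tested. These were 5.32% higher and 5.06% lower, and 19.9% higher and 19.8% lower with the block. No list was tested against these shares. Of the ligands and counter-receptors 8 of 10 were tested, 3 rose, 1 fell, and the median log2 fold change was 2.17 with Cd70 counted as higher. Tnfsf4, the OX40 ligand, rose from 0.174 and 0.169 to 12.4 and 11.9 CPM (log2 fold change 6.12 ± 0.59, adjusted p = 0.00633). Cd80 rose by 3.19 ± 0.57 (0.0190, and up to 0.0611 without a library), and Spp1, a secreted ligand of Cd44, by 4.14 ± 0.84 (0.0317). Cd86 fell from 3.13 and 4.46 to 0.262 and 0.357 CPM (-3.75 ± 0.59, 0.0142). It stood at 4.38 CPM in CD4, 8.49 CPM in CD8 and 6.08 CPM in TCRab. The sums of B cell and myeloid markers given above were also lower in activated DNT, and their part in the fall of Cd86 was not tested. Cd70, the ligand of Cd27, had 0 UMIs in naive DNT and 19.6 and 2.26 CPM in activated DNT (adjusted p = 0.111, and 1.48e-05 with the block). Tnfsf9, the 4-1BB ligand, had 3.59 and 2.46 against 4.98 and 11.4 CPM (adjusted p = 0.209).

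Among signalling genes, of 16 genes of TRAF and NF-kB signalling 0 were called in either direction (4 higher and 3 lower with the block, median -0.28), and of 12 other TNF receptors tested 0 (1 and 1, median 0.27). Of 15 genes of CD28 and ICOS signalling 0 rose and 2 fell (1 and 7 with the block, median -0.63). Among them was Prkcq, protein kinase C theta (-1.74 ± 0.41, adjusted p = 0.0396), whose adjusted p reached 0.231 without a library. None of 4 regulators of Icos and Tnfrsf4 mRNA (Rc3h1, Rc3h2, Zc3h12a, Zc3h12d) was called in either fit (median -0.28).

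In the SLAM family and its adaptors 1 of 10 rose and 1 fell (1 and 6 with the block, median -1.31). Slamf1 rose from 3.07 and 6.21 to 40.8 and 30.7 CPM (2.93 ± 0.47, adjusted p = 0.0147), and Cd244, which is also an NK cell receptor, fell from 7.88 and 6.97 to 1.28 and 1.59 CPM (-2.55 ± 0.49, 0.0239). Without a library these reached 0.0580 and 0.110. Of 4 receptors of the nectin group tested 1 fell, Cd96 (-1.54 ± 0.38, 0.0462), which passed in none of the fits without a library (0.0786 to 0.202). Among the regulatory T cell markers 3 of 4 were tested: Il2ra, the alpha subunit of the IL-2 receptor, rose (4.595 ± 0.71, 0.0135) and Ikzf2, the factor Helios, fell (-1.92 ± 0.46, 0.0410, and up to 0.245 without a library). Foxp3 was at 0 and 0.198 CPM in activated DNT. In the other marker lists 3 of 5 B cell, 1 of 5 myeloid, 4 of 4 globin and 1 of 3 NK cell genes tested fell (5, 3, 4 and 2 with the block). Of 5 T cell and 2 CD4 and CD8 lineage genes 0 were called (1 higher and 1 lower in each list with the block).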

How the data were processed

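Each library has a deposited matrix of UMI counts, genes by cell barcodes, with no normalization applied. The submitters' processing notes name Cell Ranger 2.1.0 and 3.0.1 and the mm10 and GRCm38 builds, and per the file headers the kit v3 matrices came from software 3.0.2. The kit v2 matrices list 27998 and the kit v3 matrices 31053 genes, of which 27514 were shared and used. The 10 genes, the lists and the comparisons were chosen with earlier results of these data known.

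Cell barcodes were kept from 200 detected genes upward if mitochondrial genes gave no more than 10% of UMIs. Doublets were not called, and their part in co-detection was not tested. CPM are scaled over shared genes. Intervals (95%, exact Poisson, binomial or conditional binomial) cover counting error only. Activated and naive DNT cells were compared on UMIs summed per library, with edgeR 4.0.16 (limma 3.58.1, R 4.3.3): filterByExpr, TMM scaling and the robust quasi-likelihood test, 2 against 2 libraries with 2 residual degrees of freedom, and Benjamini-Hochberg adjustment at 0.05 over 12325 genes. The code was tested on simulated data. Per the labels a replicate number goes with a kit in both groups, and same-numbered libraries deviated together (r = 0.617 across genes, which are not independent replicates), so a fit blocked by replicate number, which leaves 1 residual degree of freedom, is given beside the named genes' calls and list counts that it changes. DESeq2 1.42.0 was an alternative. Other values came from Python 3.11.15, NumPy 2.4.6, SciPy 1.17.1 and pandas 2.3.3, and figures from matplotlib 3.10.9.

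All 10 genes are named with every library's value. From each other list the genes past adjusted p 0.05 are named, at most 4 by smallest p, except for an item that is not reported here. In addition, genes of a list with a role tied to a member (Cd70, Tnfsf9) and the marker Foxp3 were named after their values were seen, as were the low co-detection pairs, the pairs of single libraries and Eomes as a partner of Cd44. For each gene up to 3 partners by co-detection in both libraries were eligible, and those at 1.5 or more in both are named. Itgam, whose symbol matched 2 IDs, was left out. The alternatives tried are in the closing section. Coordinates are from GENCODE vM21 on GRCm38.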

Additional observations from a re-analysis of the deposited data

How the results depend on the processing

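Across the 10 genes' fold changes and all alternatives, 103 values kept direction and side of the threshold, 6 gained a call, 5 lost one and 6 changed sign. Sign changes were seen in 3 genes that passed in no alternative: Cd40lg (-0.15 in thinned cells, -0.55 without activated replicate 1, -2.35 without cells with 2 or more UMIs of other cell type markers), Icos (-0.10 without activated replicate 2, -0.070 without those cells) and Slamf7 (0.21 without those cells). Leaving out 1 library gave -0.55 to 0.73 for Cd40lg and -0.10 to 1.05 for Icos. That marker rule took 24.9% to 56.4% of each library's cells, and Tnfrsf4 then had adjusted p = 0.148. A stricter rule, chosen after seeing the data, took 0.056% to 2.33% of cells and left the calls of the 10 genes as they were. Of activated DNT cells the first rule took 56.4% and 47.3% and the stricter rule 0.056% and 0.323%. Which kind of cell the first rule removed was not tested. The members called, 3, became 5 with DESeq2 and 6 with the replicate block, and 1 to 3 without a library. Over all genes 1280 calls became 2348 with DESeq2, 310 in thinned cells, 2188 without a filter on low counts, 4894 with the replicate block, 216 without the marker cells and 547 to 2074 without a library. High pairs in naive DNT, 2, became 5 without thinning and 2 to 6 with a library left out. The single high pair in activated DNT gave way to 0 at 1000 UMIs, 0 at 2500 UMIs, 2 without thinning, 0 without the marker cells, and 2 to 6 with a library left out. Pairs with under 5 cells expected were not counted at any setting, and the cause of these shifts was not tested. Counts of genes 2-fold apart between sorts stayed within 1.5 times under every alternative run. Fits without a library leave 1 library in a group, which is assumed to vary like the other group. With 2 residual degrees of freedom and kits tied to replicates, a p above 0.05 does not show that levels were equal.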
